A study of Mus musculus with 8 samples.

Results

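The circadian clock genes *Nr1d1*, *Nr1d2*, *Per1*, *Per2*, *Per3*, *Cry1*, *Cry2*, *Dbp*, *Arntl* and *Clock* were examined in bulk RNA of regulatory T (Treg) cells. The 10 genes were taken by symbol from the 42748 genes of the deposited table, and each symbol matched 1 row. CD4+ CD25+ cells were sorted by YFP from spleen and lymph nodes of female mice of the genotype Foxp3 Cre-YFP/wt on a Ripk1 fl/fl background, giving 4 YFP- libraries (genotype label Ripk1+/+) and 4 YFP+ libraries (genotype label Ripk1 -/-). The libraries carry the numbers 21, 46, 48 and 53 in each group. Both groups carry the floxed *Ripk1* alleles, and Cre is expressed from a YFP/Cre knock-in at *Foxp3*, on the X chromosome. In such females only the Treg cells whose active X chromosome holds the knock-in make Cre and YFP. Effects of the knock-in and of losing Ripk1 therefore cannot be told apart in these libraries. The sources used here give neither the age of the mice nor the hour at which tissue was taken. Nor do they say whether libraries of 1 group came from separate mice, and the p-values below therefore reflect only how far these libraries spread.

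In the clock of mammalian cells, the transcription factors CLOCK and BMAL1 (encoded by *Arntl*) bind E-box sequences and switch on the *Per*, *Cry*, *Nr1d1*, *Nr1d2* and *Dbp* genes. PER and CRY proteins then repress CLOCK and BMAL1, while the nuclear receptors REV-ERBα (*Nr1d1*) and REV-ERBβ (*Nr1d2*) repress *Arntl* at sites they share with ROR receptors. DBP activates genes through D-box sequences, where NFIL3 acts as its opponent. T cells possess this clock, and REV-ERBα is known in mice for its part in T helper 17 differentiation through *Nfil3*.

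The genes were chosen by their role in the clock with their counts in the YFP+ and YFP- libraries known, above all the 0 counts of *Nr1d1* in YFP+ libraries. Their differences between the fractions are therefore given as a description, and no test of them is used as support. Values are counts scaled to a common library size (counts per 1e+06, CPM) with factors from the trimmed mean of M-values. Fold changes are log2 values of YFP+ over YFP- from edgeR's quasi-likelihood fit on all genes, with standard errors (SE).

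Total counts were 43737313 to 70782679 in YFP- and 29719251 to 55371610 in YFP+ libraries. The YFP+ library 21 stood apart: 9571 genes reached 10 counts there, against 13047 to 16558 in the other libraries. *Ripk1*, the targeted gene, stood at 20.4, 44.2, 29.5 and 23.1 CPM in YFP- 21, 46, 48 and 53, and at 15.2, 28.7, 19.9 and 26.0 CPM in the YFP+ libraries of these numbers. These counts cover the whole gene and do not show whether the deleted part is missing. Of 6 T cell and Treg genes, 5 were detected. Their sums were 3159 to 3445 CPM among YFP- libraries and 2428 to 3524 CPM among YFP+ libraries. These sums hide differences between the genes. *Ctla4* was lower in every YFP+ library, as 10.6% of all genes were, at 121 to 193 CPM against 349 to 422 CPM. Its log2 fold change was -1.26 (SE 0.20, adjusted p = 0.0373 in edgeR), where 0.836% of all genes were called lower. This call did not hold in every fit, as edgeR called 0 genes of the whole table with library number as a block. The same was so when a YFP- library, YFP+ 46 or YFP+ 53 was left out. *Cd3e*, *Cd4*, *Il2ra* and *Ikzf2* overlapped between the groups, with *Ikzf2* at 107 to 897 CPM among YFP+ libraries. *Foxp3*, the defining factor of Treg cells, is listed at 0 in all 8, which is not read as a lack of expression. Summed levels for genes of other cells reached higher values in YFP+ libraries, with ranges that overlapped for the erythroid, the CD8 and NK, and the stromal genes. The sum of 5 B cell genes ranged over 59.0 to 81.9 CPM among YFP- libraries and 89.8 to 1634 CPM among YFP+ libraries, highest in library 48, with *Ms4a1* at 0 throughout. The 5 MHC class II genes summed to 483 to 772 CPM and 912 to 16028 CPM, and the 5 macrophage genes to 9.42 to 14.2 CPM and 42.0 to 422 CPM. Sums of 4 erythroid genes were 49.0 to 192 CPM among YFP- libraries and 156 to 2701 CPM among YFP+ libraries, with *Alas2* at 0 throughout. The 4 genes of CD8 and NK cells summed to 15.6 to 27.9 CPM and 26.0 to 95.6 CPM, and the 3 stromal genes to 0.0794 to 2.17 CPM and 0.0667 to 33.8 CPM. The part of such cells in the values below was not tested. In bulk RNA, fewer cells of a type and less RNA per cell cannot be told apart.

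The sequences before the start sites of both REV-ERB genes, of *Per1* and of *Cry1* are printed because *Nr1d1* and *Per1* lay apart between the fractions, while *Nr1d2* and *Cry1*, repressors of the same loops, overlapped. They are the 250 bases upstream, from RefSeq on GRCm38.p6, written 5′ to 3′ on the strand of the gene. Of the 2 start sites listed for *Per1*, the one whose window holds matches is shown, and the other window, chr11:69099902-69100151, holds none. Capitals mark the E-box CACGTG and the ROR and REV-ERB core AGGTCA on either strand.
Nr1d1, chr11:98775378-98775627, minus strand: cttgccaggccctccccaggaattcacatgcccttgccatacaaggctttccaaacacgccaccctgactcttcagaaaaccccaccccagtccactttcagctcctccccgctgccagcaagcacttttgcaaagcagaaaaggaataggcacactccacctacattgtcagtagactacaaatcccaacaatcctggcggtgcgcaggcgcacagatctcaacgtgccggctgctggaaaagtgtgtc
Nr1d2, chr14:18239107-18239356, minus strand: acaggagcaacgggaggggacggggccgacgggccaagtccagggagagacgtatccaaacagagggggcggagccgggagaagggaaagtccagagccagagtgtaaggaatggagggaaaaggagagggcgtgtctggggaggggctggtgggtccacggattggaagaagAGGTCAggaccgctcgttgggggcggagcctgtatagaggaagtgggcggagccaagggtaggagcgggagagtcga
Per1, chr11:69098699-69098948, plus strand: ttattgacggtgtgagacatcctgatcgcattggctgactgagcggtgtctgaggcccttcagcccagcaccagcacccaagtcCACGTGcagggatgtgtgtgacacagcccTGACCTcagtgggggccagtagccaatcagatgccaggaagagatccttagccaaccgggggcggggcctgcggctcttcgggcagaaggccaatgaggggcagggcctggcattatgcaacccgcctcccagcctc
Cry1, chr10:85185055-85185304, minus strand: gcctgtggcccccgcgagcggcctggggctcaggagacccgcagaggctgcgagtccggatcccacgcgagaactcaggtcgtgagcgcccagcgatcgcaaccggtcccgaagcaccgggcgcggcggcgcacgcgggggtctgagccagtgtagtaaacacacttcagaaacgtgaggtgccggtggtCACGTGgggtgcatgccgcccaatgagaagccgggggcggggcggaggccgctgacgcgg

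Windows of 300 bases, from 250 before to 50 after a start site, were searched on both strands for 9 of the 10 genes. CACGTG stood in those of *Per1* and *Cry1*, 2 of the 9, and in 8.09% of all 27025 genes with a window. AGGTCA stood in windows of *Nr1d2*, *Per1*, *Clock* and *Arntl*, 4 of the 9, against 18.1% of all genes. *Per1*, *Clock* and *Arntl* have several windows each, which gives them more room for a match, so these shares are not like for like. Per window, AGGTCA stood in 16.3% and CACGTG in 7.15% of all 32851 windows. The D-box, searched as TTATGTAA or TTACGTAA, stood in the window of *Per3* and in 1.23% of all genes. No other motif was searched, no match overlapped another in the windows of the 9 genes, and a match is a description of the sequence only. The windows of *Nr1d1*, *Cry2* and *Dbp* held none of the letters searched, and sites outside the windows were not looked for.

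*Nr1d1* had 655, 348, 321 and 719 counts in the YFP- libraries 21, 46, 48 and 53, equal to 8.66, 4.34, 6.63 and 9.92 CPM (7.39 ± 2.44, SD, n = 4). In all 4 YFP+ libraries it had 0 counts. The groups thus did not overlap, with *Nr1d1* lower in every YFP+ library, as 10.6% of all genes were. The YFP- mean was 52.0 times a floor of 3 counts in the shallow YFP+ library 21. It was 111 times that floor in 46, 128 times in 48 and 108 times in 53. These figures would bound the fall only if reads were independent molecules, which PCR reads without molecular identifiers are not. Of genes with a YFP- mean of 5 to 20 CPM, 20.5% had 0 counts in the YFP+ library 21 and 4.64% in 53. In 46 and 48 these shares were 0.915% and 0.542%. By the same floor, *Dbp* would be at least 66.9-fold lower in library 21, though it was counted in the other YFP+ libraries. Of the 15063 genes tested, 39 (0.259%) had 0 counts in every YFP+ library.

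*Nr1d1* lies on the minus strand of chromosome 11 from 98767932 to 98775333 in GRCm38, and no other annotated gene covers 85.5% of that span. The rest is shared, at the 3′ end, with *Thra*, which encodes the thyroid hormone receptor alpha on the opposite strand. The sources used here do not say whether the counting used strand, and reads over the shared end may be split or lost. *Thra* measured 8.81, 13.9, 12.1 and 12.8 CPM in YFP- and 0.0473, 2.27, 2.23 and 3.23 CPM in YFP+ libraries 21, 46, 48 and 53. Its level was lower in every YFP+ library, as 10.6% of all genes were. Counts were present in all 4, but only 1 in library 21. The log2 fold change of *Thra* was -2.61 (SE 0.96, adjusted p = 0.332 in edgeR). Without the YFP+ library 21 it fell by 2.21 on the log2 scale (SE 0.33, adjusted p = 0.0187 in edgeR), where 3.97% of all genes were called lower.

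The second REV-ERB gene, *Nr1d2*, did not share the absence. It measured 55.7, 37.7, 54.5 and 41.6 CPM in YFP- libraries 21, 46, 48 and 53, and 0.616, 56.8, 29.6 and 20.03 CPM in the YFP+ libraries. The groups overlapped, because the YFP+ library 46 held the highest value of all 8. In library 21 the gene had 13 counts. The log2 fold change was -0.82 (SE 0.94), being -0.42 (SE 0.35) without the YFP+ library 21 and -1.48 without 46. No other annotated gene overlaps *Nr1d2*, which lies on chromosome 14 from 18204054 to 18239127.

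**Figure D1:**
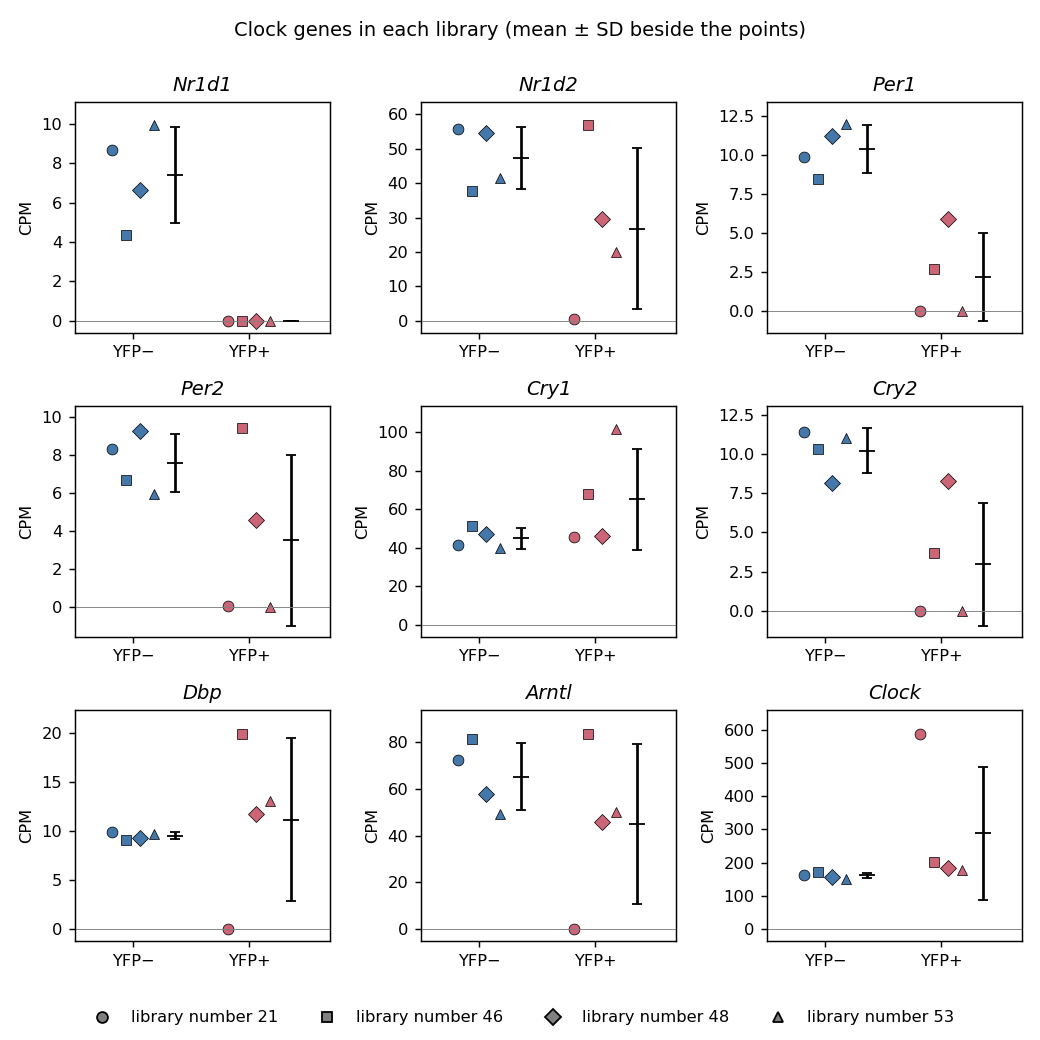
CPM of 9 clock genes in each of the 4 YFP- (blue) and 4 YFP+ (red) libraries, with marker shape for the library number and the mean ± SD beside the points. *Nr1d1* is at 0 in all YFP+ libraries, and the YFP+ library 21 lies at or near 0 for 7 of the 9 genes but at 588 CPM for *Clock*.

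The period genes encode the repressors that CLOCK and BMAL1 switch on. *Per1* measured 9.87, 8.50, 11.3 and 11.99 CPM in YFP- 21, 46, 48 and 53. In YFP+ libraries it had 0 counts in 21 and 53, and 2.71 and 5.94 CPM in 46 and 48. All YFP+ values were below the lowest YFP- value, as for 10.6% of all genes. The log2 fold change of *Per1* was -2.26 (SE 1.66), or -3.51 without the YFP+ library 48. *Per2* measured 8.35, 6.68, 9.29 and 5.98 CPM in YFP- libraries. It had 1 count in the YFP+ library 21, 0 in 53, and 9.45 and 4.57 CPM in 46 and 48. The groups overlapped, since library 46 was above every YFP- library, and the log2 fold change was -1.10 (SE 1.57), or -2.27 without that library. No other annotated gene overlaps *Per1* (chromosome 11, 69095217 to 69109960) or *Per2* (chromosome 1, 91415982 to 91459324).

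*Per3* is listed at 0 in all 8 libraries and was not tested. The gene, on chromosome 4 from 151003652 to 151044665, lies wholly inside *Camta1* on the same strand, although 100% of its exonic bases are free of other exons. *Camta1* itself had 791 to 2429 counts in YFP- libraries. Among 40 genes of the clock listed here, the 10 included, 4 have 0% of their span free of other genes: *Per3*, the repressor gene *Ciart*, the cell cycle kinase gene *Wee1* and the deubiquitinase gene *Usp2*. All 4 are listed at 0 in all libraries, against 0 of the 36 others, so their zeros are not read as a lack of expression. For *Ciart*, *Wee1* and *Usp2* the covering genes lie on the opposite strand, and 100% of the span is free on their own strand. Whether the counting used strand was not tested.

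**Figure D2:**
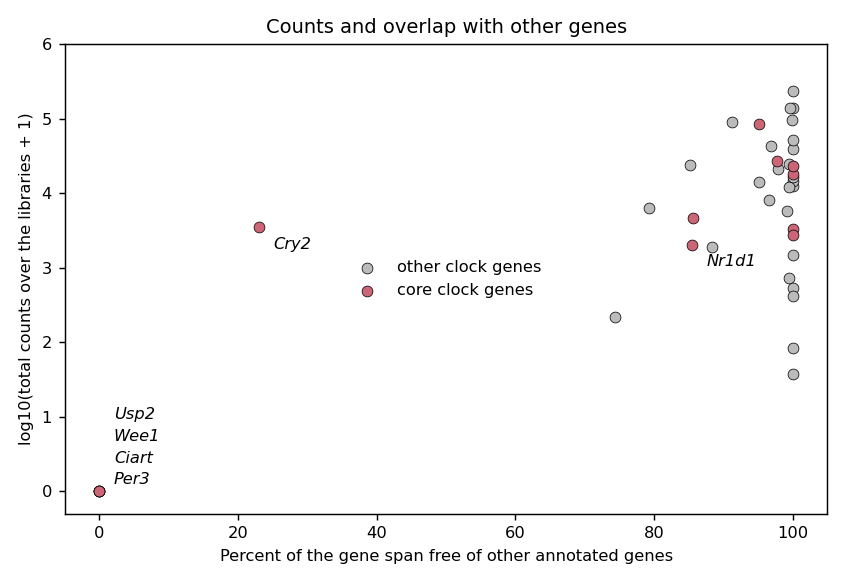
Total counts over the 8 libraries, as log10 of the count + 1, against the percent of each gene's span that is free of other annotated genes, for 10 core and 30 other clock genes. The 4 genes with 0% of their span free lie at 0 counts.

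The cryptochromes, which repress CLOCK and BMAL1 together with PER proteins, had fold changes of opposite sign. *Cry1* stood at 41.5, 51.4, 47.3 and 39.9 CPM in YFP- 21, 46, 48 and 53, and at 45.7, 68.0, 46.1 and 101 CPM in YFP+ 21, 46, 48 and 53. It was the steadier of the pair, with overlapping groups, and its log2 fold change was 0.54 (SE 0.33), or 0.66 (SE 0.26) without the YFP+ library 21. *Cry2* measured 11.4, 10.3, 8.15 and 11.0 CPM in YFP- libraries. In YFP+ libraries it had 0 counts in 21 and 53, and 3.67 and 8.24 CPM in 46 and 48, so that 1 YFP+ library fell within the YFP- range. Its log2 fold change was -1.77 (SE 1.68), or -3.05 without that library, 48. The long noncoding gene *D930015M05Rik* covers most of *Cry2* on the opposite strand, leaving 23.0% of its span free, and has 0 counts in all libraries.

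*Clock* and *Arntl*, whose proteins act as a pair, also had fold changes of opposite sign. *Clock* stood at 164, 172, 158 and 152 CPM in YFP- 21, 46, 48 and 53, and at 588, 202, 184 and 180 CPM in the YFP+ libraries. All YFP+ values were above the highest YFP- value, as for 7.83% of all genes, and narrowly so except in library 21. The log2 fold change went from 0.84 (SE 0.41) to 0.21 (SE 0.10) without the YFP+ library 21, a 1.54-fold smaller ratio. *Arntl* measured 72.6, 81.5, 57.8 and 49.3 CPM in YFP- libraries, and 0.189, 83.7, 45.9 and 49.98 CPM in the YFP+ libraries. The groups overlapped, and apart from library 21, where it had 4 counts, its YFP+ values spread across those of the YFP- libraries. The log2 fold change of *Arntl* was -0.54 (SE 1.10), and -0.14 (SE 0.27) without that library.

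*Dbp*, the output gene of the loop, was the most even of the 9 genes in YFP- libraries, at 9.87, 9.10, 9.33 and 9.72 CPM (9.50 ± 0.351, SD, n = 4). In YFP+ libraries 46, 48 and 53 it measured 19.9, 11.7 and 13.03 CPM, all above the YFP- range, while library 21 had 0 counts. *Dbp* thus stood at 569 counts in the YFP+ library 53, in which *Nr1d1*, *Per1*, *Per2* and *Cry2*, of similar level in YFP- libraries, had none. The log2 fold change was 0.23 (SE 1.25), and 0.64 (SE 0.26) without the YFP+ library 21. *Dbp* shares its 3′ end with *Sphk2*, a sphingosine kinase gene on the opposite strand, which leaves 85.6% of the span of *Dbp* to itself. *Sphk2* measured 13.6 to 22.8 CPM in YFP- libraries and 0, 15.1, 23.5 and 17.5 CPM in YFP+ libraries 21, 46, 48 and 53.

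**Figure D3:**
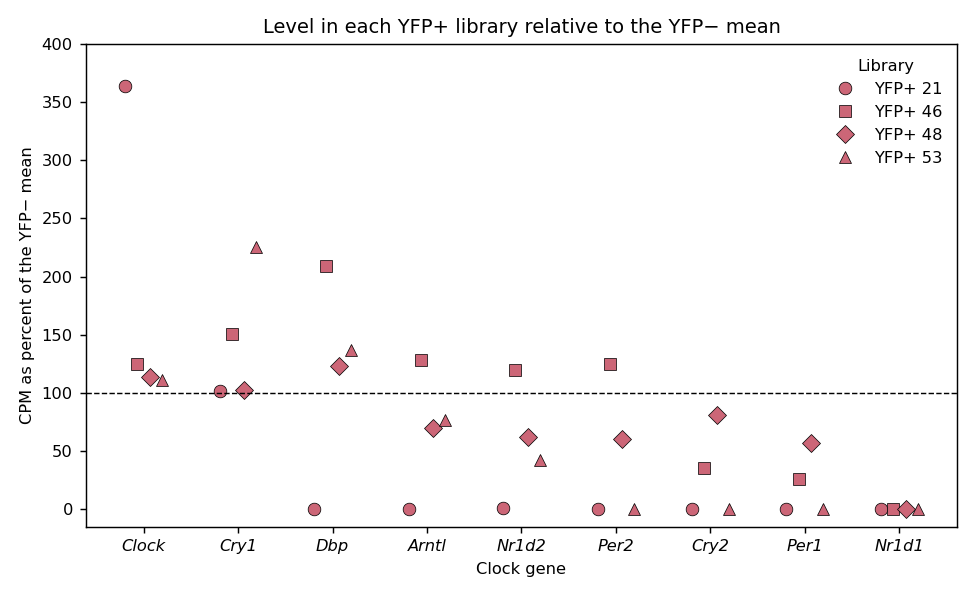
CPM of 9 clock genes in each YFP+ library as a percent of the mean of the 4 YFP- libraries, with the dashed line at 100%. *Clock* and *Cry1* stayed at or above the line in all 4 libraries, *Dbp* was above it in 3, and *Nr1d1* was at 0 in all.

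Read by library, 4 of the 9 counted genes had 0 counts in each of the YFP+ libraries 21 and 53, and only *Nr1d1* had none in 46 and 48. The median of the 9 genes, as a percent of their YFP- means, was 0.290% in the YFP+ library 21, 125% in 46, 70.2% in 48 and 42.3% in 53. Zeros in these libraries were counted over the whole table as well. Of 2952 genes with a YFP- mean of 5 to 20 CPM, the band of *Nr1d1*, *Per1*, *Per2*, *Cry2* and *Dbp*, 20.5% had 0 counts in the YFP+ library 21, 0.915% in 46, 0.542% in 48 and 4.64% in 53. Their median level was 4.45% of the YFP- mean in library 21 and 84.9% to 90.1% in the other YFP+ libraries. Of 4401 genes at 20 to 80 CPM, the band of *Nr1d2*, *Arntl* and *Cry1*, 31.4% had fewer than 20 counts in library 21 and at most 0.932% in the others. Of 2283 genes at 80 to 320 CPM, the band of *Clock*, the median level in library 21 was 108% of the YFP- mean, against 364% for *Clock*. No gene of these bands had 0 counts in a YFP- library.

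Across the 9 genes tested, 6 had a negative and 3 a positive log2 fold change, with a median of -0.82 beside -0.02 for all genes tested, of which 50.9% were negative. The groups did not overlap for *Nr1d1* and *Per1*, both lower in YFP+ libraries, where 10.6% of all genes did the same, and for *Clock*, higher, where 7.83% did. Without the YFP+ library 21 the median was -0.42, *Dbp* joined *Clock* in lying wholly above the YFP- range, as 12.5% of all genes did, and *Nr1d1* and *Per1* lay below it, as 13.7% did. At an adjusted p under 0.05 in edgeR, 126 of all genes (0.836%) were called lower and 5 (0.0332%) higher, with 1 of the 9, *Nr1d1*, among the former. Without the YFP+ library 21, 6.64% were called, 3.97% lower and 2.68% higher, again with *Nr1d1* alone of the 9. When library number was added as a block, edgeR called 0 genes of the whole table, with 1440 at an unadjusted p under 0.05. It also called 0 when a YFP- library, YFP+ 46 or YFP+ 53 was left out, with 1130 to 2326 at an unadjusted p under 0.05. The choice of these genes rests on the same contrast, and *Nr1d1* entered the fit only through its YFP- counts, so nothing is read from these counts.

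**Figure D4:**
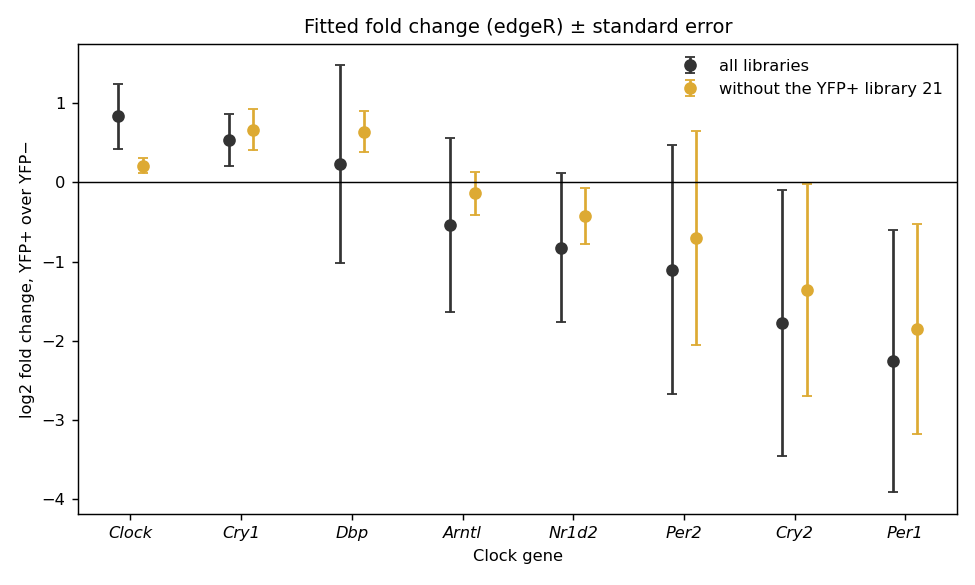
Log2 fold change of YFP+ over YFP- from edgeR with its standard error, for 8 clock genes, over all libraries (black) and without the YFP+ library 21 (yellow). *Nr1d1*, with 0 counts in YFP+ libraries, is left out, since its fitted fold change rests on no YFP+ counts. The bars of *Arntl*, *Dbp*, *Per1*, *Per2* and *Cry2* exceed 1 log2 unit over all libraries.

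Within YFP- libraries the levels can be ordered per exonic kilobase, on the union of exons in GENCODE M21. This scale assumes reads from exons, while the sources used here do not name the unit of counting. *Per3*, *Ciart* and *Wee1* are listed at 0 although 100% of their exonic bases are free of other exons. Counts may thus depend on the whole span, of which only 23.0% is free for *Cry2*. The order is therefore that of the counts as listed, and the place of *Cry2* is not read as low expression. *Cry1* stood highest at 13.5 ± 1.60 CPM per kilobase (SD, n = 4), followed by *Clock* at 11.8 ± 0.644 (SD, n = 4), with overlapping ranges. *Nr1d2* and *Arntl* came next at 8.76 ± 1.68 and 8.68 ± 1.92 (SD, n = 4), which did not differ beyond their spread, and whose ranges lay below that of *Clock*. A gap separated them from *Dbp* at 3.18 ± 0.117 and *Nr1d1* at 2.40 ± 0.795 (SD, n = 4). *Per1*, *Cry2* and *Per2* were lowest, at 1.85 ± 0.274, 1.61 ± 0.228 and 1.29 ± 0.259 (SD, n = 4). From *Dbp* down, each gene's range overlapped that of the next. Relative to its mean, *Nr1d1* varied most among the 9, with its lowest YFP- value, in library 46, at 58.7% of the mean.

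The rest of the clock was followed in a list of 30 genes drawn from general knowledge, of which 24 could be tested. None passed in edgeR over all genes (0 of 24, beside 0.87% of all genes in either direction), while 2 had an unadjusted p under 0.05, as 12.6% of all genes did, and 2 passed in DESeq2, as 7.27% did. Of the 24, 16 had a negative and 8 a positive log2 fold change, with a median of -0.39 beside -0.02 for all genes tested. In 4 of them the YFP+ values all lay under the YFP- values, where 10.6% of all genes did so, and in 0 they all lay above. Beside the 3 D-box factors below, this was *Fbxl21*, a ubiquitin ligase gene acting on CRY proteins, named after its values were seen. *Fbxl21* ranged over 0.784 to 2.22 CPM among YFP- libraries and 0 to 0.769 CPM among YFP+ libraries, with a log2 fold change of -2.52 (SE 1.29, adjusted p = 0.455 in edgeR).

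Of the factors that bind D-boxes beside DBP, 3 of 3 had lower values in every YFP+ library, as 10.6% of all genes did. Over all libraries, edgeR called 0 of these 3. *Nfil3*, which encodes the repressor that opposes DBP, measured 4.40, 4.10, 9.37 and 4.51 CPM in YFP- 21, 46, 48 and 53. It had 0, 7, 16 and 0 counts in the YFP+ libraries, or at most 0.308 CPM. Its log2 fold change was -5.51 (SE 1.36, adjusted p = 0.151 in edgeR), or -6.57 without the YFP+ library 48. DESeq2 gave -5.53 with an adjusted p of 2.98e-06, while the adjusted p of the other edgeR fits ran from 0.05002, not past the threshold, to 0.436. *Hlf*, an activator of the DBP family, measured 0.780, 2.26, 2.09 and 2.33 CPM in YFP- and 0.284, 0.0889, 0.0961 and 0.0687 CPM in YFP+ libraries. With 3 to 6 counts in each YFP+ library, it had a log2 fold change of -3.83 (SE 0.69, adjusted p = 0.0544 in edgeR), and it fell by 4.43 on the log2 scale without the YFP+ library 21 (SE 0.63, adjusted p = 0.0171 in edgeR). DESeq2 gave *Hlf* -3.89 with an adjusted p of 4.13e-07, and the other edgeR fits an adjusted p of 0.0171 to 0.436. It was the 1 gene of the list called without the YFP+ library 21, beside 3.97% of all genes called lower. *Tef*, the third activator of that family, measured 21.2, 19.3, 13.6 and 16.8 CPM in YFP- and 0.189, 2.54, 11.5 and 0.0687 CPM in YFP+ libraries, which gave a log2 fold change of -2.30 (SE 1.33, adjusted p = 0.492 in edgeR), or -4.23 without the YFP+ library 48. *Dbp* itself, at or above its YFP- level in 3 YFP+ libraries, did not share their direction.

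**Figure D5:**
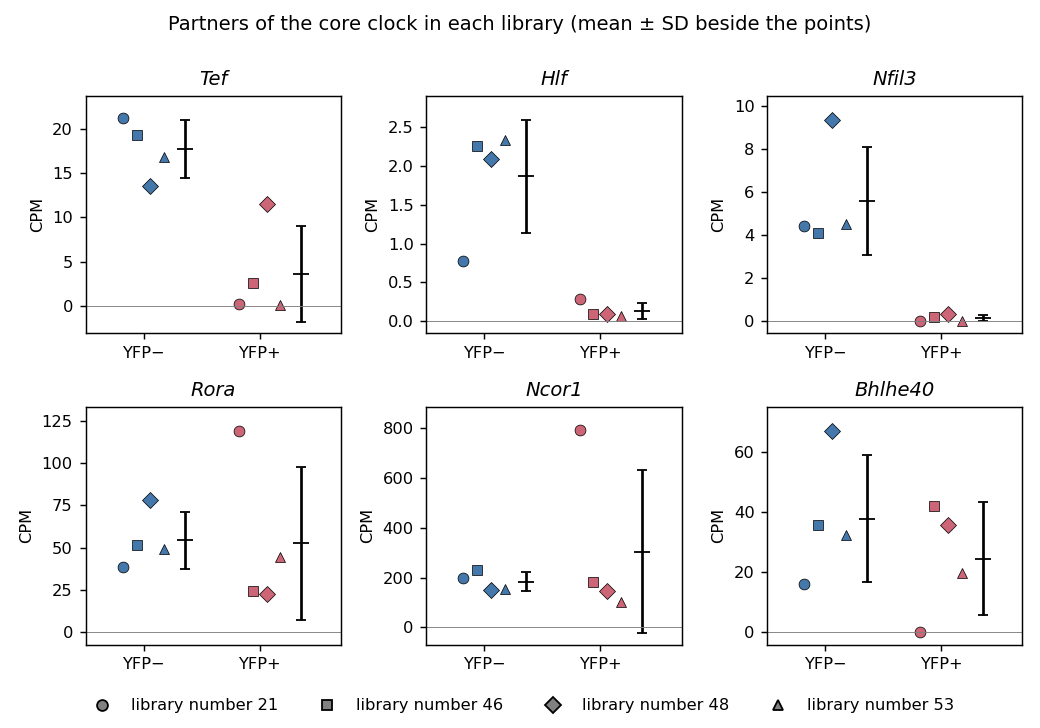
CPM of 6 partners of the core clock in each YFP- (blue) and YFP+ (red) library, with marker shape for the library number and the mean ± SD beside the points. *Tef*, *Hlf* and *Nfil3* are lower in every YFP+ library, as 10.6% of all genes are, while *Rora*, *Ncor1* and *Bhlhe40* overlap between the groups.

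*Rora*, which encodes a ROR receptor that activates *Arntl* at the sites REV-ERB proteins repress, was named after its values were seen. *Rora* measured 38.8, 51.6, 78.4 and 49.1 CPM in YFP- and 119, 24.5, 22.5 and 44.6 CPM in YFP+ libraries 21, 46, 48 and 53. The groups overlapped, and the sign of the difference was not stable. Its log2 fold change was -0.05 (SE 0.57, adjusted p = 0.979 in edgeR), -0.84 without the YFP+ library 21 (SE 0.33, adjusted p = 0.168 in edgeR) and 0.20 without the YFP+ library 48. *Ncor1*, the corepressor that REV-ERB proteins recruit, had 789 CPM in the YFP+ library 21, against 100 to 182 CPM in the other YFP+ and 151 to 232 CPM in YFP- libraries.

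The most abundant genes of the other groups overlapped between the fractions. *Csnk1a1*, which encodes casein kinase 1 alpha, averaged 498 ± 41.7 CPM (SD, n = 4) over the YFP- libraries and 564 ± 88.6 CPM (SD, n = 4) over the YFP+ libraries (adjusted p = 0.673 in edgeR). *Kdm5a*, a histone demethylase gene whose product binds CLOCK and BMAL1, measured 286 to 345 CPM in YFP- libraries and 529, 294, 294 and 302 CPM in the YFP+ libraries 21, 46, 48 and 53 (adjusted p = 0.814 in edgeR). *Bhlhe40*, a repressor that competes for E-boxes and is induced by T cell receptor signals, measured 16.2, 35.7, 67.0 and 32.5 CPM in YFP- libraries. It had 0 counts in the YFP+ library 21, and 42.2, 35.7 and 19.9 CPM in 46, 48 and 53 (adjusted p = 0.878 in edgeR). *Nampt*, a clock output that makes NAD precursors, ranged over 48.2 to 68.5 CPM among YFP- libraries and 25.9 to 109 CPM among YFP+ libraries (adjusted p = 0.909 in edgeR).

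Over the 8 libraries, the 5 tested genes whose log2(CPM + 0.5) followed *Nr1d1* most closely were *1700001K19Rik*, *Zfp799*, *Lmntd2*, *Atp6v0d2* and *Gpr15*, with Pearson's r of 0.993 to 0.998. Each was lower in every YFP+ library, which follows from picking genes that track *Nr1d1*. *Gpr15*, a homing receptor for the colon, and *Atp6v0d2*, a subunit of the proton pump, were the most abundant, at 17.2 ± 3.20 and 7.06 ± 2.60 CPM (SD, n = 4) in YFP- libraries. *Gpr15* had 0 counts in all YFP+ libraries, and *Atp6v0d2* had 1 or 2. All 8 points share their libraries, so the likeness chiefly repeats the split between the groups, and none of the 5 is another clock gene.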

How the data were processed

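The authors deposited raw counts per Ensembl gene for 4 YFP- and 4 YFP+ libraries, without normalization. Processing notes of the submitters name Trim Galore and STAR, with mm10 as genome build. Neither their versions nor the counter, its annotation and its use of strand are stated in the sources used here. Columns were matched to libraries by title.

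The main fit used edgeR 4.0.16 under R 4.3.3, with TMM factors, filterByExpr (at least 10 counts, total at least 15) and a quasi-likelihood test of YFP+ against YFP-. P-values were adjusted by Benjamini-Hochberg across 15063 genes, and 0.05 was the threshold. Of the 10 clock genes, 9 passed the filter. The SE was obtained from the fold change and the F statistic. Floors of 3 counts equal 0.0577 to 0.142 CPM in the YFP+ libraries. GENCODE M21 (GRCm38) supplied the gene models and holds 99.5% of the gene identifiers.

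The clock genes, lists and alternatives were chosen with earlier results of these data known. All core genes are named. Further clock genes are named where they were called over all libraries or without the YFP+ library 21, or had the highest mean CPM of their group (for D-box factors, the next highest too), and *Rora* and *Fbxl21* were added later. Overlapping genes and the 5 genes most like *Nr1d1* are also named. Fits were repeated with DESeq2 1.42.0, with RLE or upper-quartile factors, without a filter, with a filter of 5 CPM in 4 libraries, with robust dispersion, with a block for library number, without each library, and without YFP+ 21 and 48 together. Scripts were tested on simulated data. Some genes of the list are not reported here.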

Additional observations from a re-analysis of the deposited data

Results flagged for a closer look

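In 6 of 35 groups of 4 libraries, over the clock genes and the named partners, 1 library stood far from its 3 neighbours, with Dixon's gap-to-range ratio above the 95% limit. By chance 1.75 of 35 would, were the groups independent and their values normally spread. The groups share the same libraries and some hold zeros, so no excess is read from this number. The YFP+ library 21 was the highest of its group for *Clock* (ratio 0.946; 588 CPM against 180 to 202 CPM), *Ncor1* (0.882; 789 CPM against 100 to 182 CPM), *Kdm5a* (0.964; 529 CPM against 294 to 302 CPM) and *Hlf* (0.873; 0.284 CPM against 0.0687 to 0.0961 CPM, or 3 to 6 counts). The YFP- library 21 was the lowest for *Hlf* (0.841; 0.780 CPM against 2.09 to 2.33 CPM). The YFP- library 48 was the highest for *Nfil3* (0.922; 9.37 CPM against 4.10 to 4.51 CPM).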

How the results depend on the processing

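In all, 131 genes were called. The number was 1095 with DESeq2, 10 without a filter on low counts, 9 with the stricter filter, 0 with the library number as a replicate block and 940 without the YFP+ libraries 21 and 48. Leaving out 1 library gave 0 to 1052 genes. Of the 9 core genes, 0 were called without a filter, with the stricter filter, which *Nr1d1* did not pass, or with the replicate block, and 0 to 1 with 1 library left out. Nothing is read from these counts, since the genes were chosen on this contrast. The block moved the median log2 fold change of all genes from -0.022 to -0.32, and gave -1.45 for *Nr1d2*, -4.94 for *Per1*, -3.85 for *Per2*, -4.74 for *Cry2*, -4.52 for *Tef*, -6.46 for *Nfil3* and -1.47 for *Bhlhe40*. Of the 30 partners, 1 was called lower with upper-quartile factors (*Hlf*), 2 with DESeq2 and 2 without the YFP+ libraries 21 and 48, and leaving out 1 library gave 0 to 1.

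Values that changed sign were those of genes not called. The log2 fold change of *Dbp* was -0.38 with the replicate block and -0.18 to 0.64 with 1 library left out, negative without the YFP+ library 46. That of *Arntl* was 0.022 without the YFP+ libraries 21 and 48. *Rora* had 0.028 with RLE factors, 0.017 with the stricter filter, 0.028 with DESeq2, and -0.84 to 0.20 with 1 library left out. With 1 library left out, *Ncor1* had -0.37 to 0.999, *Kdm5a* -0.11 to 0.24 and *Nampt* -0.28 to 0.39, each negative without the YFP+ library 21, and without both 21 and 48 they had -0.39, -0.10 and -0.53. *Nampt* had -0.019 with the replicate block. The causes were not tested. Of 285 values of single genes under alternatives, 256 kept direction and call.

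Libraries of the numbers 21, 46, 48 and 53 correlated across the groups at 0.0489, 0.0682, 0.140 and 0.0950 in their deviations from the group means. Of the 8 libraries, 7 correlated best with their own number. The exception was the YFP+ library 21, with 0.0677 to the YFP- library 46. Whether equal numbers mark a shared mouse is not stated in the sources used here.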
